A study of Mus musculus with 8 samples.

Results

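Macrophage identity and polarization genes were followed in whole mammary glands of mice that had received small extracellular vesicles (sEVs) from tumor cells. The set holds 10 genes taken by name from the count table, namely Adgre1, Cd68, Csf1r, Mrc1, Cd163, Lyve1, Timd4, Itgax, Aif1 and Retnla, among 51789 genes in all. All 10 passed the filter on low counts, which left 17858 genes. The sEVs came from AT3, a mouse line derived from a metastatic mammary tumor, kept in normoxia (sEVNORM, 3 glands) or in hypoxia (sEVHYP, 2 glands), and the control was medium that had seen no cells and was processed in the same way (sEVCTRL, 3 glands). All glands came from immunocompetent female C57BL/6 mice without a transgene or tumor, and were taken 6 weeks after injection into the abdominal mammary gland. Age is not given in the sources used here. Polyadenylated RNA of the whole gland was sequenced, so that fewer macrophages and less RNA per macrophage cannot be told apart.

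Macrophages of the mammary gland sit along the ducts, in the stroma and in the fat pad, where they clear dying cells and take part in ductal growth. Adgre1 encodes F4/80, Cd68 a lysosomal glycoprotein, Csf1r the receptor for the growth factors CSF1 and IL-34, and Aif1 the actin-binding protein IBA1, and these serve as general markers of the lineage. Mrc1 encodes the mannose receptor CD206, Cd163 the scavenger receptor for haptoglobin-bound hemoglobin, and Lyve1 a hyaluronan receptor that lymphatic endothelium also carries. Timd4 encodes TIM-4, a receptor for phosphatidylserine on dying cells, and marks many long-lived resident macrophages. Itgax encodes the integrin CD11c, which dendritic cells carry as well, and Retnla encodes the secreted protein RELMα, which is induced by interleukin-4 and interleukin-13.

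The libraries held 18194996 to 24622569 counts, and all values below are CPM, counts scaled to the size of the library with TMM, unless a log2 scale is named. The libraries differed in tissue makeup within groups. sEVNORM replicate 2 had a summed level of 10 skeletal muscle markers of 8.33 CPM, against 650 to 12400 CPM in the other 7 libraries, and the highest summed level of 8 B cell markers, 2870 CPM, against 834 to 2480 CPM. sEVHYP replicate 2 had the lowest level of 8 pan-leukocyte markers, 2400 CPM, against 2810 to 5670 CPM, and Ptprc, which encodes the common leukocyte antigen CD45, at 476 CPM against 580 to 1210 CPM. Markers of the gland's own cell types were present. Krt8, a luminal keratin, stood at 48.2 to 109 CPM, and Adipoq, which encodes the adipocyte hormone adiponectin, at 678 to 1580 CPM.

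On GRCm38, Adgre1 lies at chr17:57358691-57483527 on the plus strand and Aif1 at chr17:35170991-35176068 on the minus strand. Cd68 lies at chr11:69664213-69666153 on the minus strand and Timd4 on the same chromosome at chr11:46810800-46844332 on the plus strand. Lyve1 occupies chr7:110850607-110863239 on the minus strand and Itgax chr7:128129547-128150657 on the plus strand. Cd163 lies at chr6:124304656-124330527, Retnla at chr16:48842551-48844461 and Mrc1 at chr2:14229392-14332057, all on the plus strand. Mrc1 holds the microRNA gene Mir511 on its own strand. Csf1r, at chr18:61100598-61132149 on the plus strand, overlaps Mir6983 on its own strand and Hmgxb3 on the opposite one. Whether the counting used strand is not given in the sources used here, so reads of Csf1r and Hmgxb3 in that overlap cannot be told apart.

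Levels of different genes were compared per kilobase of exon, as means over the 8 libraries. Retnla was the most abundant of the 10, at 2200 ± 732 CPM per kb (SD, n = 8), and its lowest library, 884 CPM per kb, exceeded the highest of any other member. Timd4 followed at 72.3 ± 12.6 CPM per kb (SD, n = 8), again with no overlap with the next gene. Cd68 (36.8 CPM per kb), Mrc1 (33.2 CPM per kb) and Lyve1 (32.8 CPM per kb) had overlapping ranges and no settled order. Below them, Aif1 (16.7 CPM per kb), Csf1r (16.6 CPM per kb) and Adgre1 (15.5 CPM per kb) overlapped as well. Cd163 stood at 7.68 CPM per kb and was below Adgre1 in 8 of 8 libraries although the ranges overlapped. Itgax was lowest at 2.55 ± 0.442 CPM per kb (SD, n = 8), with no library reaching the lowest one of Cd163.

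**Figure D1:**
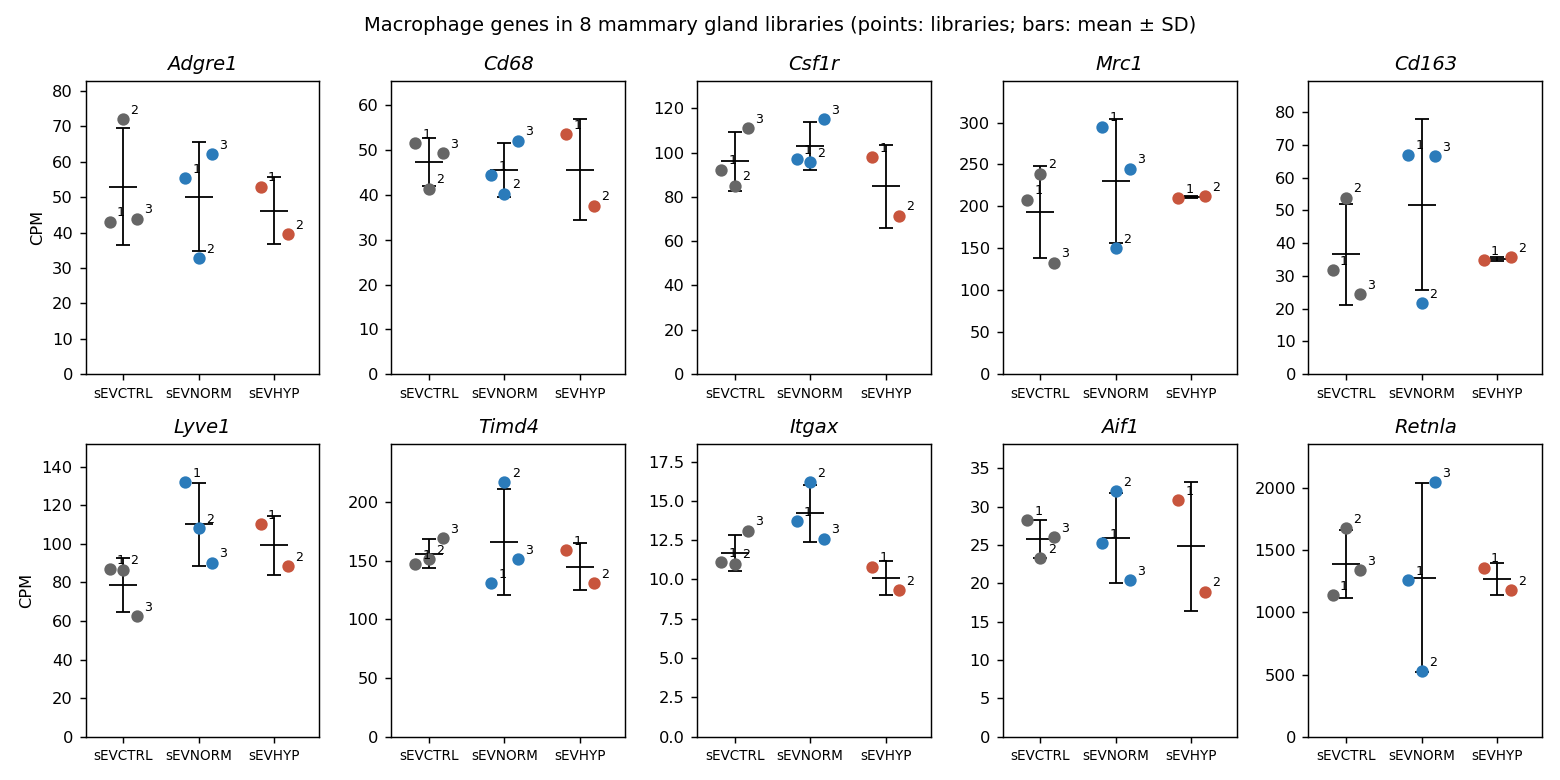
Level of the 10 macrophage genes in every library. The y axis gives CPM from 0, each point is a library numbered by its replicate, and bars give the mean ± SD of a group. Retnla runs from 529 CPM in sEVNORM replicate 2 to 2050 CPM in sEVNORM replicate 3, and the groups overlap for 8 of the 10 genes in every comparison (the exceptions are Lyve1 and Itgax). Of all genes tested, 12.8% did not overlap in sEVHYP against sEVCTRL, 22.8% in sEVHYP against sEVNORM and 4.85% in sEVNORM against sEVCTRL glands.

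Of the 10 genes, Cd68 and Csf1r varied least from library to library. Cd68 was at 51.6, 41.4 and 49.3 CPM in sEVCTRL glands, at 44.4, 40.3 and 52.1 CPM in sEVNORM glands and at 53.6 and 37.6 CPM in sEVHYP glands. The highest and the lowest library of all 8 were thus the 2 sEVHYP glands, 1.43-fold apart. Csf1r was at 92.3, 85.1 and 111 CPM in sEVCTRL, at 97.0, 95.7 and 115 CPM in sEVNORM and at 97.8 and 71.5 CPM in sEVHYP glands, with sEVHYP replicate 2 below every other library. For Cd68, the log2 fold change in edgeR's quasi-likelihood test was -0.06 (SE 0.20, 95% interval -0.51 to 0.40) in sEVHYP against sEVCTRL glands. For Csf1r it was -0.18 (SE 0.19, 95% interval -0.62 to 0.25) in the same comparison and -0.28 (SE 0.19, 95% interval -0.71 to 0.16) against sEVNORM glands. Neither gene passed an unadjusted P of 0.05.

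Aif1 stood at 28.2, 23.3 and 26.0 CPM in sEVCTRL, at 25.2, 32.0 and 20.4 CPM in sEVNORM and at 30.8 and 18.9 CPM in sEVHYP glands. Its group means, 25.8 ± 2.47, 25.9 ± 5.83 and 24.8 ± 8.40 CPM (SD, n = 3, 3 and 2), were closer to each other than the libraries of any group. Adgre1 was at 43.1, 72.0 and 43.9 CPM in sEVCTRL, at 55.3, 32.7 and 62.2 CPM in sEVNORM and at 52.9 and 39.5 CPM in sEVHYP glands. The sEVCTRL group held its highest library and the sEVNORM group its lowest, 2.20-fold apart. The log2 fold change of Adgre1 was -0.20 (SE 0.32, 95% interval -0.92 to 0.52) in sEVHYP against sEVCTRL glands, and that of Aif1 was -0.06 (SE 0.26, 95% interval -0.64 to 0.52).

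Among the scavenger receptors, Mrc1 was at 208, 239 and 133 CPM in sEVCTRL, at 295, 150 and 245 CPM in sEVNORM and at 210 and 212 CPM in sEVHYP glands. Cd163 was at 31.7, 53.9 and 24.4 CPM in sEVCTRL, at 67.0, 21.6 and 66.5 CPM in sEVNORM and at 34.7 and 35.6 CPM in sEVHYP glands. In each group the libraries fell in the same order for both genes, with sEVCTRL replicate 3 and sEVNORM replicate 2 the lowest of all 8 for both. Cd163 had the widest intervals of the set. Its log2 fold change was 0.50 (SE 0.42, 95% interval -0.45 to 1.45) in sEVNORM against sEVCTRL glands and -0.56 (SE 0.48, 95% interval -1.63 to 0.52) in sEVHYP against sEVNORM glands. These estimates turned on single libraries. Without sEVNORM replicate 2 they were 0.86 (edgeR quasi-likelihood, unadjusted P = 0.0185) and -0.92 (unadjusted P = 0.0228). Without sEVNORM replicate 1 they were 0.26 and -0.32, and without sEVNORM replicate 3 they were 0.27 and -0.33. The former was 0.88 without sEVCTRL replicate 2 (unadjusted P = 0.0777) and 0.27 without sEVCTRL replicate 3. For Mrc1, the log2 fold change was 0.25 (SE 0.28, 95% interval -0.38 to 0.88) in sEVNORM against sEVCTRL and -0.13 (SE 0.31, 95% interval -0.83 to 0.58) in sEVHYP against sEVNORM glands.

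For Mrc1 and Cd163, which moved together from gland to gland, the sequence just before the start is shown. It is given 5′ to 3′ on the gene's strand from RefSeq (GRCm38.p6), and stops where the gene model of the count table begins. Capitals mark a match to GAGGAA, the core that the macrophage lineage factor PU.1 binds, searched on both strands in the 250 bases before the RefSeq start. The Mrc1 stretch is chr2:14229164-14229391 and the Cd163 stretch chr6:124304401-124304650, both on the plus strand.
Mrc1: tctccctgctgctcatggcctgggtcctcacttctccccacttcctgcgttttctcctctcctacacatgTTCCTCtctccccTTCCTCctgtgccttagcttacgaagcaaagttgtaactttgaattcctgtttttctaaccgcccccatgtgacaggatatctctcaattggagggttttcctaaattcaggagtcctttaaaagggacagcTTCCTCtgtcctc
Cd163: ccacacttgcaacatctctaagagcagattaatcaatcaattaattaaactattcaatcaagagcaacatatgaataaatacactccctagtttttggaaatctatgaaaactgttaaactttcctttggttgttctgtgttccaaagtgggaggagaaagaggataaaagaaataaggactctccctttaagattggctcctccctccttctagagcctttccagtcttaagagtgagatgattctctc
Mrc1 held 3 matches, all on the strand opposite to the gene and starting 180, 167 and 35 bases before the RefSeq start, and Cd163 held 0. Of 32851 mouse promoters of the same length in the table, 23.3% held at least 1 match. Among the 7 members found there, 4 held 1 (Mrc1, Cd68, Retnla and Aif1), whereas Itgax, Timd4 and Cd163 did not. Adgre1, Csf1r and Lyve1 were not matched. These matches describe letters, and their part in the shared variation of Mrc1 and Cd163 was not tested.

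Lyve1 was at 86.9, 86.5 and 62.6 CPM in sEVCTRL, at 132, 108 and 90.2 CPM in sEVNORM and at 110 and 88.5 CPM in sEVHYP glands. Every gland that received tumor sEVs was above every control gland, by little in sEVNORM replicate 3 and sEVHYP replicate 2. Groups did not overlap for 12.8% of all genes tested in sEVHYP and 4.85% in sEVNORM against sEVCTRL glands. Group means were 78.7 ± 14.0, 110 ± 21.3 and 99.3 ± 15.3 CPM (SD, n = 3, 3 and 2). Lyve1 was 1.40-fold higher in sEVNORM than in sEVCTRL glands (log2 fold change 0.49, SE 0.20, 95% interval 0.04 to 0.93; edgeR quasi-likelihood, unadjusted P = 0.0357, Benjamini-Hochberg adjusted P = 1.0). It passed the unadjusted threshold no longer without sEVCTRL replicate 3 (0.34, unadjusted P = 0.112), sEVNORM replicate 1 (0.33, unadjusted P = 0.153) or sEVNORM replicate 2 (0.50, unadjusted P = 0.0594). In sEVHYP against sEVCTRL glands, the log2 fold change was 0.34 (SE 0.22, 95% interval -0.16 to 0.83). Since lymphatic endothelium carries Lyve1 too, 9 markers of that cell type were examined beside it. None of the 9 passed an unadjusted P of 0.05 in any comparison, and their mean log2 CPM was 4.26 to 4.31 in sEVCTRL, 4.30 to 4.37 in sEVNORM and 4.28 to 4.42 in sEVHYP glands. Their summed level was 350 to 418 CPM, 369 to 421 CPM and 344 to 347 CPM. Against sEVCTRL glands, 5 of the 9 were on the higher and 4 on the lower side, both in sEVNORM and in sEVHYP glands. Among all genes tested, 49.8% and 47.5% were on the higher side in these comparisons, and 1.62% and 2.45% passed. Prox1, the transcription factor that defines the lineage, was at 12.5 to 22.6 CPM. The part of lymphatic endothelium in the Lyve1 difference was not tested.

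Timd4, the receptor for dying cells, stood at 147, 151 and 169 CPM in sEVCTRL, at 131, 217 and 151 CPM in sEVNORM and at 159 and 131 CPM in sEVHYP glands. One library, sEVNORM replicate 2, lay above the rest, and the other 7 lay between 131 and 169 CPM. The log2 fold change was -0.10 (SE 0.22, 95% interval -0.61 to 0.40) in sEVHYP against sEVCTRL glands and 0.09 (SE 0.20, 95% interval -0.36 to 0.54) in sEVNORM against sEVCTRL glands. Itgax was at 11.1, 11.0 and 13.1 CPM in sEVCTRL, at 13.7, 16.2 and 12.6 CPM in sEVNORM and at 10.8 and 9.31 CPM in sEVHYP glands. Both sEVHYP glands were below all 6 others, and the highest library was again sEVNORM replicate 2. Itgax was lower in sEVHYP than in sEVNORM glands, at a ratio of 0.71 (log2 fold change -0.49, SE 0.20, 95% interval -0.95 to -0.03; edgeR quasi-likelihood, unadjusted P = 0.0400, Benjamini-Hochberg adjusted P = 1.0).

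That difference in Itgax missed the unadjusted threshold without sEVCTRL replicate 1 (unadjusted P = 0.0569), sEVNORM replicate 1 (unadjusted P = 0.0687), sEVNORM replicate 2 (log2 fold change -0.38, unadjusted P = 0.126), sEVHYP replicate 1 (-0.60, unadjusted P = 0.0652) or sEVHYP replicate 2 (-0.39, unadjusted P = 0.197). Dendritic cells and other myeloid cells carry CD11c, so their markers were examined beside it. Of 13 dendritic cell markers, 11 were on the lower side in sEVHYP against sEVNORM glands and 1 passed the unadjusted threshold, Siglech, a receptor of plasmacytoid dendritic cells (33.0 against 54.5 CPM; edgeR quasi-likelihood, unadjusted P = 0.0405, and up to 0.149 without sEVCTRL replicate 1, sEVNORM replicate 2 or either sEVHYP gland). The summed level of the 13 was 944 to 1340 CPM in sEVCTRL, 954 to 1060 CPM in sEVNORM and 967 to 969 CPM in sEVHYP glands. Of 10 neutrophil markers tested, 9 were on the lower side and 5 passed. Over all genes tested, 3.95% passed in this comparison and 47.0% were on the higher side. The summed level of the neutrophil list was 50.4 to 126 CPM in sEVCTRL, 83.6 to 208 CPM in sEVNORM and 58.5 to 82.6 CPM in sEVHYP glands. One of the 5, the granule protein gene Camp, had no count in the 2 sEVHYP glands and at most 30 in a library. It reached the filter on low counts only through the sEVNORM glands and was not tested without sEVNORM replicate 2, so it had to differ. The part of these cells in the Itgax difference was not tested.

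Retnla had the highest level and the widest spread of the set, 3.87-fold from the lowest to the highest library. It was at 1140, 1680 and 1340 CPM in sEVCTRL, at 1260, 529 and 2050 CPM in sEVNORM and at 1360 and 1180 CPM in sEVHYP glands. Both extremes lay in the sEVNORM group, and the other groups lay between them. The log2 fold change was -0.13 (SE 0.46, 95% interval -1.15 to 0.90) in sEVHYP against sEVCTRL, -0.01 (SE 0.45, 95% interval -1.04 to 1.02) in sEVHYP against sEVNORM and -0.12 (SE 0.41, 95% interval -1.03 to 0.80) in sEVNORM against sEVCTRL glands. At the bounds of these intervals the ratios ran from 0.45 to 1.87, from 0.49 to 2.02 and from 0.49 to 1.74.

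Retnla answers to interleukin-4 through STAT6, and Itgax was the member with an unadjusted difference after sEVHYP, so the stretches before their starts are shown as well, at chr16:48842359-48842550 and chr7:128129300-128129546 on the plus strand of GRCm38.p6 (RefSeq). Capitals mark the palindromic STAT element TTCNNNNGAA, which reads alike on both strands, and the PU.1 core as above.
Retnla: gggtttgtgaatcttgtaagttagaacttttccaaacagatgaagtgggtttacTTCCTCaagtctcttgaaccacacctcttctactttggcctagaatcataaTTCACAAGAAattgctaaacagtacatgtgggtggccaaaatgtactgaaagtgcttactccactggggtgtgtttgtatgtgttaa
Itgax: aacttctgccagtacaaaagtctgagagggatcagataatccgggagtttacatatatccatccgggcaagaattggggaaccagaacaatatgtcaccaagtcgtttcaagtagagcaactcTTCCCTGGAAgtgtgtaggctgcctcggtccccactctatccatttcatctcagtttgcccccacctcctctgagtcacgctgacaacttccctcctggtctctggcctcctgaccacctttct
Retnla held 1 STAT element, TTCACAAGAA, starting 145 bases before the RefSeq start, and 1 PU.1 core at 196 bases. Itgax held 1 STAT element, TTCCCTGGAA, at 127 bases. The other 5 members in the table held no STAT element, and 5.85% of the 32851 promoters did. These matches describe letters and not binding, which was not measured.

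Set side by side, the 3 comparisons gave few differences in macrophage genes. In sEVHYP against sEVCTRL glands, 2 members were on the higher and 8 on the lower side, and 0 passed an unadjusted P of 0.05, where 2.45% of all genes tested did. In sEVHYP against sEVNORM glands, all 10 were on the lower side, from -0.56 for Cd163 to -0.0012 for Cd68 (log2), and 1 passed, Itgax, beside 3.95% of all genes. In sEVNORM against sEVCTRL glands, 7 were higher and 3 lower, and 1 passed, Lyve1, beside 1.62% of all genes. These comparisons share samples, so the signs in them are not independent of each other.

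**Figure D2:**
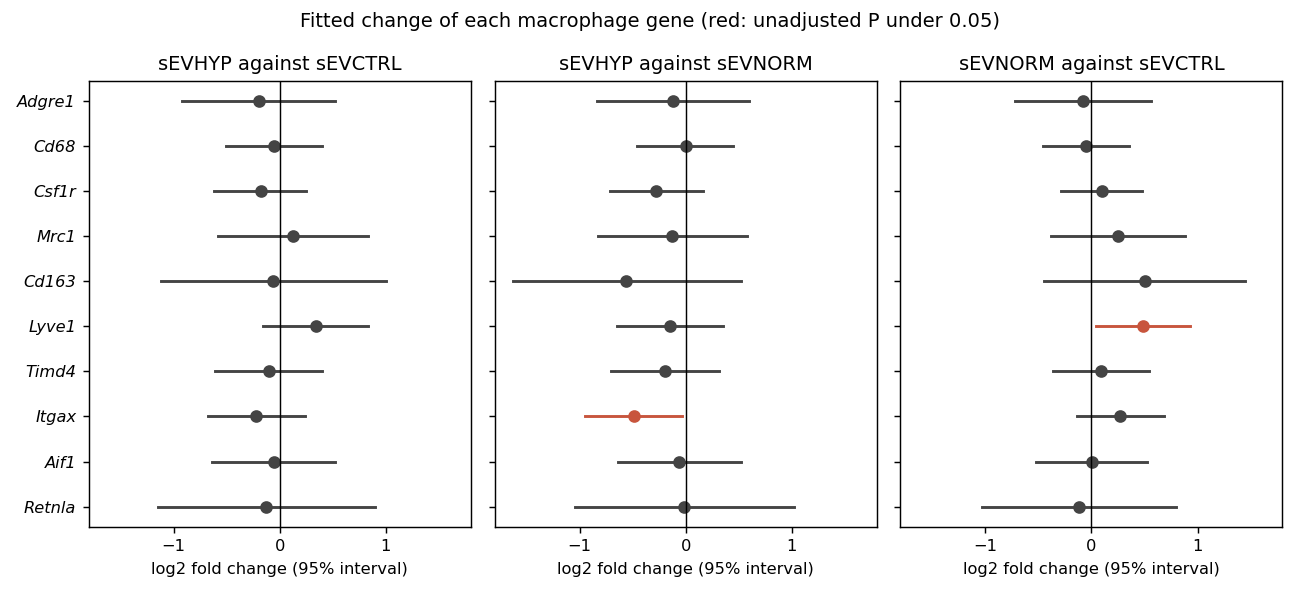
Fitted log2 fold change of the 10 macrophage genes in the 3 comparisons, with 95% intervals from edgeR's quasi-likelihood fit. Points in red passed an unadjusted P of 0.05, namely Itgax at -0.49 in sEVHYP against sEVNORM and Lyve1 at 0.49 in sEVNORM against sEVCTRL, and the intervals of Cd163 and Retnla were the widest.

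After Benjamini-Hochberg adjustment over all genes in edgeR, 0 members passed 0.05 in any comparison, and neither did any other gene (0% of all genes tested in each of the 3). At an unadjusted P under 0.05, 438, 706 and 290 genes passed in sEVHYP against sEVCTRL, sEVHYP against sEVNORM and sEVNORM against sEVCTRL glands. DESeq2 on all 8 libraries gave 4, 16 and 2 genes past an adjusted P of 0.05, none of them a member. The median log2 fold change of the members was -0.081, -0.14 and 0.094 in these comparisons, beside -0.015, -0.02 and -0.0008 over all genes. The share of all genes on the higher side was 47.5%, 47.0% and 49.8%. Without sEVHYP replicate 1, the median of the members was -0.29 against sEVCTRL and -0.34 against sEVNORM glands, and without sEVHYP replicate 2 it was 0.014 and -0.036. Without sEVNORM replicate 2 it was -0.33 in sEVHYP against sEVNORM glands.

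Groups did not overlap for 2 members in sEVHYP against sEVCTRL glands (Lyve1 and Itgax), where 12.8% of all genes did not, and for 1 member, Itgax, in sEVHYP against sEVNORM glands, where 22.8% did not. In sEVNORM against sEVCTRL glands this held for 1 member, Lyve1, beside 4.85% of all genes. In each comparison, 8 of the 10 members had a 95% interval within 1 log2 unit on either side of 0. The exceptions were Cd163 and Retnla.

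The other members were also set beside the general markers of the lineage. The log2 CPM of Mrc1, Cd163, Lyve1, Timd4, Itgax and Retnla was taken relative to the mean log2 CPM of Adgre1, Cd68, Csf1r and Aif1. These general markers did not all move together over the 8 libraries. Pearson r was 0.73 for Cd68 with Csf1r, but 0.20 for Adgre1 with Csf1r and -0.35 for Adgre1 with Aif1. Whether their mean follows the amount of macrophage RNA was not tested. That mean, the pan-macrophage level, was 5.62, 5.63 and 5.65 in sEVCTRL, 5.63, 5.49 and 5.72 in sEVNORM and 5.76 and 5.24 in sEVHYP glands. The sEVHYP glands were thus the highest and the lowest of all 8. Relative to it, Lyve1 stood at 0.82, 0.81 and 0.32 in sEVCTRL, at 1.42, 1.26 and 0.78 in sEVNORM and at 1.03 and 1.23 in sEVHYP glands. The sEVHYP and sEVCTRL groups did not overlap, with a difference of 0.48 on the log2 scale (exact permutation test, two-sided, P = 0.2, the smallest that 2 against 3 libraries allow). On the CPM scale, 12.8% of all genes tested did not overlap in this comparison, and the share on the relative scale was not computed. Itgax stood at -2.13, -2.15 and -1.93 in sEVCTRL, at -1.85, -1.47 and -2.05 in sEVNORM and at -2.31 and -2.0 in sEVHYP glands. On this relative scale its sEVHYP and sEVNORM groups overlapped, with a difference of -0.37 (exact permutation test, two-sided, P = 0.4).

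**Figure D3:**
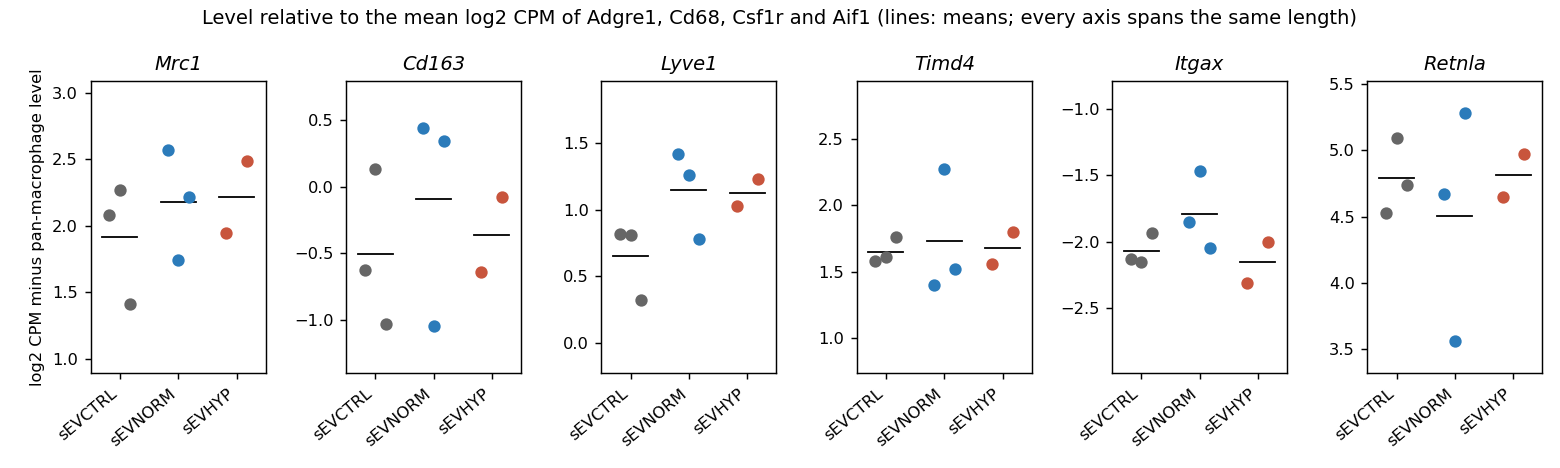
Level of the other 6 members relative to the pan-macrophage level. The y axes give log2 CPM of the gene minus the mean log2 CPM of Adgre1, Cd68, Csf1r and Aif1, points are libraries, lines are group means, and all axes span the same length. Lyve1 in sEVHYP glands (1.03 and 1.23) lies above the sEVCTRL glands (0.32 to 0.82), and Retnla spans 3.56 to 5.28 within the sEVNORM group. On the CPM scale, 12.8% of all genes tested did not overlap in sEVHYP against sEVCTRL glands.

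Of the 18 relative differences tested, 0 passed an adjusted P of 0.05 (Benjamini-Hochberg over the exact permutation tests, two-sided). The smallest unadjusted P was 0.2 and the smallest adjusted P was 1.0. With 3 libraries against 3 the test cannot go below 0.1, and with 2 against 3 not below 0.2, so no difference here could pass 0.05. Relative to the pan-macrophage level, Retnla differed by 0.02 between sEVHYP and sEVCTRL glands (4.81 ± 0.22 against 4.79 ± 0.28, SD, n = 2 and 3). Timd4 differed by 0.03 (1.68 ± 0.17 against 1.65 ± 0.10, SD, n = 2 and 3). These differences were smaller than the spread within either group.

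Variation between glands of a group was shared among the members in blocks. Over the 8 libraries, the log2 CPM of Mrc1 and Cd163 had a Pearson r of 0.91, Adgre1 and Retnla of 0.85, and Adgre1 and Cd163 of 0.82. Cd68 and Csf1r had an r of 0.73. With group means removed these were 0.92, 0.87, 0.90 and 0.87. Timd4 ran against Mrc1 (r = -0.75) and Cd163 (r = -0.68). All are descriptions over 8 libraries that share depth, tissue makeup and the scaling of a library.

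sEVNORM replicate 2, with the highest Timd4, Itgax and Aif1 and the lowest Retnla, Cd163 and Adgre1, weighed on the blocks. Without it, over 7 libraries, Mrc1 and Cd163 still had an r of 0.88, Adgre1 and Retnla of 0.79 and Cd68 and Csf1r of 0.81, and Mrc1 and Timd4 of -0.71. The r of Timd4 and Retnla went from -0.65 to 0.32, that of Itgax and Retnla from -0.50 to 0.29, and that of Timd4 and Itgax from 0.68 to 0.24. Without this library, Retnla no longer ran against Timd4 and Itgax. Lyve1 came closer to Mrc1 without it, with an r of 0.85 in place of 0.59.

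**Figure D4:**
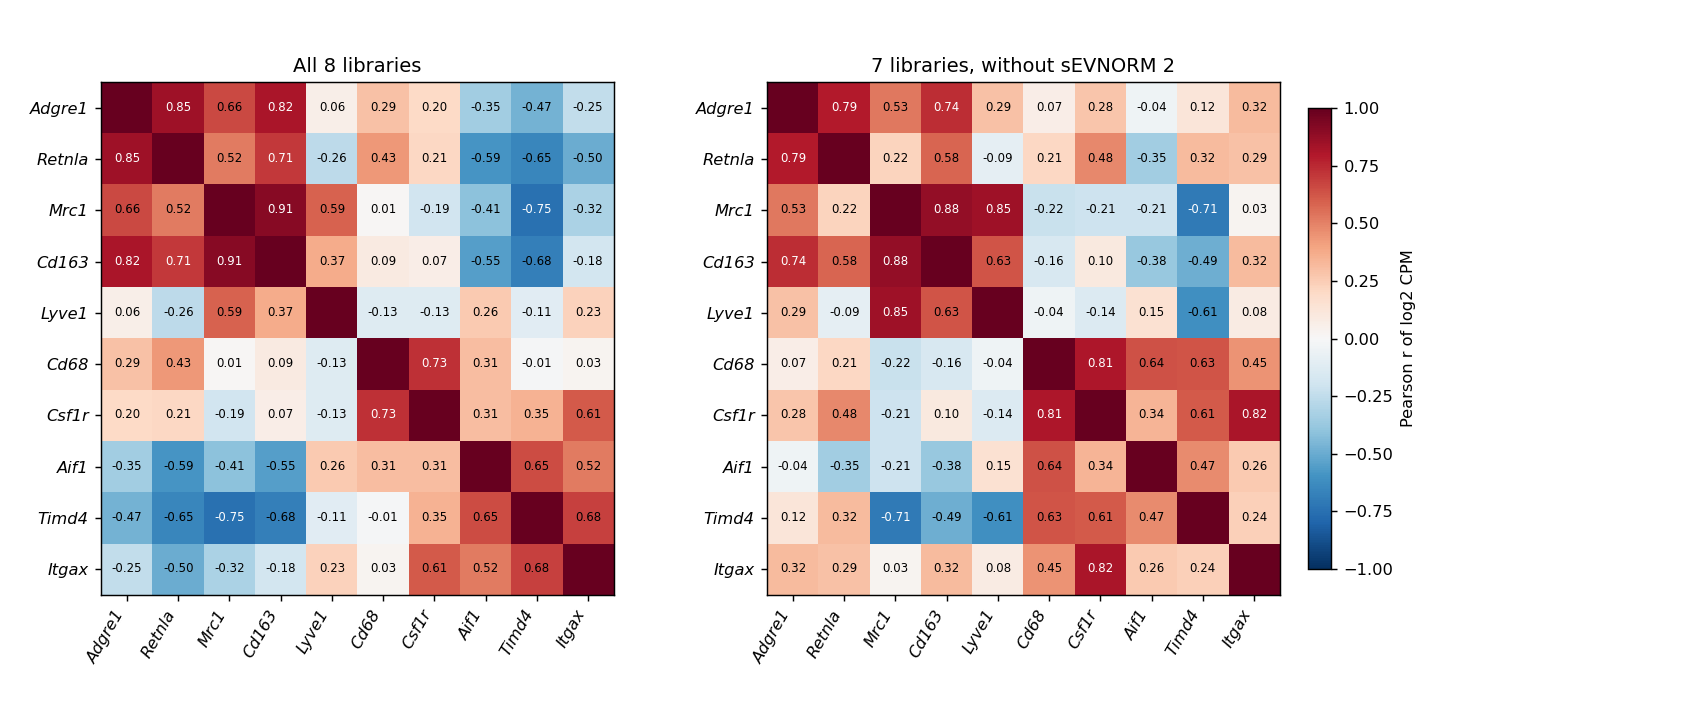
Pearson r between the log2 CPM of the macrophage genes, over all 8 libraries on the left and over 7 libraries without sEVNORM replicate 2 on the right. The pairs Mrc1 with Cd163 and Adgre1 with Retnla stay at 0.88 and 0.79 on the right, whereas Timd4 with Retnla turns from -0.65 to 0.32.

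Tissue makeup moved along with some members. Aif1 followed the 8 B cell markers (r = 0.90, and 0.86 without sEVNORM replicate 2) and the 8 pan-leukocyte markers (0.90 and 0.86). Itgax followed the 10 neutrophil markers (0.88 and 0.78) and the 13 dendritic cell markers (0.83 and 0.69). Retnla and Timd4 tracked skeletal muscle markers in opposite directions over 8 libraries (0.80 and -0.81) but weakly without sEVNORM replicate 2 (0.09 and -0.26). To the pan-leukocyte markers, Mrc1 had an r of -0.28, Cd163 of -0.46 and Retnla of -0.62, and of -0.03, -0.24 and -0.39 without sEVNORM replicate 2. Mrc1 (0.67 and 0.60), Cd163 (0.73 and 0.66), Retnla (0.62 and 0.59) and Adgre1 (0.64 and 0.55) followed the 8 fibroblast markers with and without that library. Aif1 (-0.71 and -0.65), Timd4 and Itgax (both -0.52 and -0.37), Csf1r (-0.31 and -0.33) and Cd68 (-0.20 and -0.43) ran against them. Lyve1 was at 0.19 and 0.34. The part of fibroblast content in these levels was not tested. The summed B cell markers were at 1160 to 2480 CPM in sEVCTRL, 1180 to 2870 CPM in sEVNORM and 834 to 1790 CPM in sEVHYP glands. Their part in the levels of Aif1 was not tested.

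**Figure D5:**
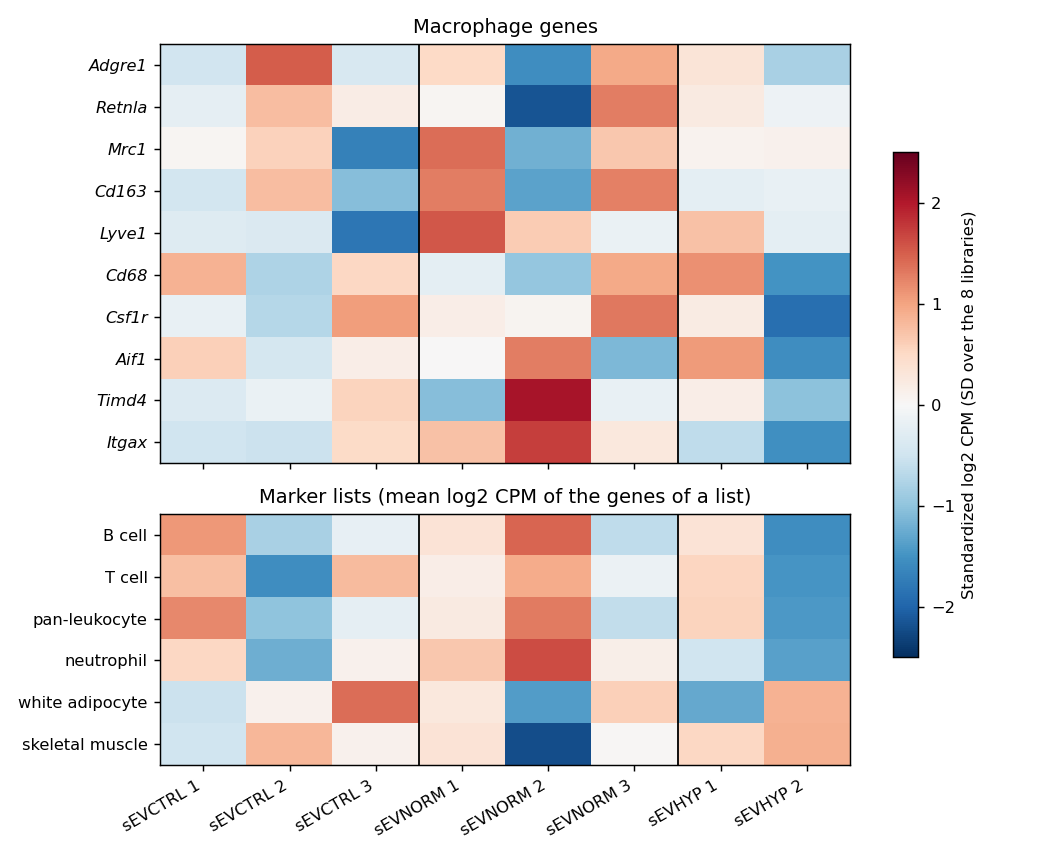
Macrophage genes (top) and marker lists of other cell types (bottom) in each library, as log2 CPM standardized to the mean and SD over the 8 libraries. sEVNORM replicate 2 combines the highest Timd4 (2.07), Itgax (1.72) and Aif1 (1.28) with the lowest Retnla (-2.16) and skeletal muscle markers, and sEVHYP replicate 2 is lowest for Csf1r (-1.89), Aif1 (-1.55) and Cd68 (-1.49).

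Other genes of the macrophage program were read from fixed lists, all by edgeR's quasi-likelihood test, and 0 of them passed an adjusted P of 0.05 in any comparison. Of 18 further pan-macrophage genes, 16 were on the lower side in sEVHYP against sEVNORM glands (median log2 fold change -0.25). The mean log2 CPM of the 18 was 6.24, 6.08 and 6.12 in sEVNORM and 6.11 and 5.68 in sEVHYP glands. Of the 18, 2 passed the unadjusted threshold. Over all genes tested, 3.95% passed in this comparison and 47.0% were on the higher side. Mertk, a receptor tyrosine kinase for the uptake of dying cells, was at 24.5 against 44.2 CPM (log2 fold change -0.85, SE 0.26, unadjusted P = 0.00963). Mpeg1, the pore-forming protein perforin-2, was at 155 against 204 CPM (-0.40, SE 0.17, unadjusted P = 0.0416). Mertk missed the threshold without sEVHYP replicate 1 (-0.57, unadjusted P = 0.0699) and Mpeg1 (P up to 0.155) without sEVCTRL replicate 1, sEVNORM replicate 2, sEVNORM replicate 3 or either sEVHYP gland. In sEVNORM against sEVCTRL glands, 15 of these 18 were on the higher side (median 0.16), beside 49.8% of all genes tested. Fcgr1, which encodes the high-affinity IgG receptor CD64, passed the unadjusted threshold, as did 1.62% of all genes. It was at 13.5 against 9.43 CPM (0.52, SE 0.21, edgeR quasi-likelihood, unadjusted P = 0.0341). Fcgr1 missed it (P up to 0.152) without sEVCTRL replicate 1 or 3, sEVNORM replicate 1 or 3 or sEVHYP replicate 2.

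No growth factor or regulator of the lineage stood out. Of 13 tested, 0 passed an unadjusted P of 0.05 in any comparison, and the medians were 0.0046, -0.091 and -0.057 in sEVHYP against sEVCTRL, sEVHYP against sEVNORM and sEVNORM against sEVCTRL glands. Among all genes tested, 2.45%, 3.95% and 1.62% passed in these comparisons. Csf1, the main macrophage growth factor, had group means of 42.3 ± 6.11, 38.9 ± 3.28 and 44.5 ± 4.72 CPM in sEVCTRL, sEVNORM and sEVHYP glands (SD, n = 3, 3 and 2). Il34, the other ligand of the Csf1r receptor, was at 2.59 to 7.11 CPM. Spi1, which encodes PU.1, was at 15.4 to 27.3 CPM, and its lowest library, as for Csf1r, was sEVHYP replicate 2. Csf2 had at most 7 counts in a library and was not tested.

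Alternative activation was the list with the most unadjusted differences among the macrophage lists. Of 16 genes tested, 3 passed on the higher side in sEVHYP against sEVCTRL glands (8 higher and 8 lower in all, median 0.16). Over all genes tested, 2.45% passed in that comparison, in either direction. The lists were chosen with earlier results of these data known. RNA of the whole gland does not tell which cells carried the transcripts of this list. Egr2, a transcription factor of interleukin-4 responses, was at 7.92 and 4.17 CPM in sEVHYP glands, at 4.06, 5.76 and 5.01 CPM in sEVNORM glands and at 2.39, 2.23 and 2.95 CPM in sEVCTRL glands. All 5 glands given tumor sEVs exceeded the 3 controls. Groups did not overlap for 12.8% of all genes tested in sEVHYP and 4.85% in sEVNORM against sEVCTRL glands. The share of genes that separate in both was not computed. The log2 fold change was 1.26 (SE 0.33, 95% interval 0.51 to 2.02; edgeR quasi-likelihood, unadjusted P = 0.00436, Benjamini-Hochberg adjusted P = 1.0) for sEVHYP and 0.97 (SE 0.31, 95% interval 0.28 to 1.66; unadjusted P = 0.0115, adjusted P = 1.0) for sEVNORM against sEVCTRL glands. The former missed the threshold without sEVHYP replicate 1 (0.73, unadjusted P = 0.0888), and the latter passed with any 1 library left out (P up to 0.0415).

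Alox15, a lipoxygenase of alternatively activated macrophages, was at 2.20, 2.39 and 0.970 CPM as means of sEVHYP, sEVNORM and sEVCTRL glands (1.17, unadjusted P = 0.0476, and 1.29, unadjusted P = 0.0221, against sEVCTRL). The latter was lost (P up to 0.0776) without sEVCTRL replicate 1 or 3 or sEVNORM replicate 1 or 3, and the former (P up to 0.179) without any of these or either sEVHYP gland. Mgl2, a C-type lectin, was at 39.3 against 26.7 CPM in sEVHYP against sEVCTRL glands (0.56, SE 0.23, unadjusted P = 0.0360), and it missed the threshold (P up to 0.193) without sEVCTRL replicate 1 or 3, sEVNORM replicate 3 or either sEVHYP gland. Ccl22, a chemokine that draws regulatory T cells, was at 39.5 and 40.3 CPM in sEVHYP glands, at 18.9, 25.9 and 19.7 CPM in sEVNORM and at 22.8, 22.3 and 40.5 CPM in sEVCTRL glands. It was higher in sEVHYP than in sEVNORM glands (0.90, SE 0.27, edgeR quasi-likelihood, unadjusted P = 0.00964, adjusted P = 1.0), also with any 1 library left out (P up to 0.0393). Arg1 and Chil3, the other classical markers of this state beside Retnla, did not pass. Arg1, which encodes arginase-1, was at 0.399 to 3.18 CPM and Chil3, which encodes the chitinase-like protein Ym1, at 0.749 to 20.1 CPM.

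In the classical activation list, 0 of 20 genes passed an unadjusted P of 0.05 in edgeR's quasi-likelihood test in sEVHYP against sEVCTRL or in sEVHYP against sEVNORM glands. Nos2, the inducible nitric oxide synthase, was at 1.22 to 3.66 CPM, with group means of 2.05 ± 1.40, 1.45 ± 0.234 and 2.15 ± 0.969 CPM in sEVCTRL, sEVNORM and sEVHYP glands (SD, n = 3, 3 and 2). In sEVHYP against sEVNORM glands, 17 of the 20 were on the lower side (median -0.14). In sEVNORM against sEVCTRL glands, 16 were on the higher side (median 0.22). Over all genes tested, 47.0% and 49.8% were on the higher side in these comparisons. Past the unadjusted threshold were 2.45% of all genes in sEVHYP against sEVCTRL and 3.95% in sEVHYP against sEVNORM glands.

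Of 18 markers of tissue-resident macrophages, 1 passed, Slco2b1, an organic anion transporter, on the lower side in sEVHYP against sEVCTRL glands (35.2 against 52.0 CPM; -0.56, SE 0.21, edgeR quasi-likelihood, unadjusted P = 0.0266). It missed the threshold (P up to 0.223) without sEVCTRL replicate 2 or 3 or sEVHYP replicate 1. Folr2, a folate receptor of perivascular and stromal macrophages, had means of 54.4 ± 10.6, 53.6 ± 20.0 and 57.2 ± 9.03 CPM in sEVCTRL, sEVNORM and sEVHYP glands (SD, n = 3, 3 and 2). Of 15 monocyte-derived and lipid-associated markers, 1 passed, Ly6c2, a surface marker of inflammatory monocytes, which was at 35.9 against 73.2 CPM in sEVHYP against sEVNORM glands (-1.03, SE 0.37, edgeR quasi-likelihood, unadjusted P = 0.0219, and -0.92, unadjusted P = 0.0527, without sEVNORM replicate 2). Leaving out sEVNORM replicate 1 or sEVHYP replicate 2 also ended the call (P up to 0.155). Of 16 scavenger and phagocytic receptors tested, Mertk passed as above, and Fcgr4, an IgG receptor, was higher in sEVNORM than in sEVCTRL glands (24.1 against 13.8 CPM; 0.81, SE 0.29, unadjusted P = 0.0213) but not (P up to 0.0767) without sEVCTRL replicate 1 or 3 or sEVNORM replicate 1 or 3. Beside these calls, 2.45% of all genes tested passed in sEVHYP against sEVCTRL, 3.95% in sEVHYP against sEVNORM and 1.62% in sEVNORM against sEVCTRL glands. Clec4f, a marker of liver macrophages, had 0 counts in every library.

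Neutrophil genes also gave unadjusted differences. For all genes tested, the share past this threshold was 2.45% in sEVHYP against sEVCTRL glands. It was 3.95% in sEVHYP against sEVNORM and 1.62% in sEVNORM against sEVCTRL glands. In sEVHYP against sEVNORM glands, Retnlg, a paralog of Retnla that neutrophils express, was at 2.51 against 8.83 CPM (-1.81, SE 0.56, edgeR quasi-likelihood, unadjusted P = 0.00979, adjusted P = 1.0). Ngp, a granule protein, was at 0.324 against 6.36 CPM (-4.22, SE 1.2, unadjusted P = 0.00647), and S100a8 and S100a9, the subunits of calprotectin, were at 4.27 against 27.9 CPM and 3.34 against 24.3 CPM. The calprotectin genes missed the threshold without sEVNORM replicate 2 (S100a8, unadjusted P = 0.106, and S100a9, unadjusted P = 0.0752), and also without sEVHYP replicate 2, as did Retnlg (unadjusted P = 0.0682). S100a8 was lost without sEVCTRL replicate 3 as well. In sEVNORM against sEVCTRL glands, Retnlg (8.83 against 3.57 CPM) and Ngp (6.36 against 1.59 CPM) passed on the higher side, but not without sEVNORM replicate 2 (unadjusted P = 0.0999 and 0.270). Without sEVCTRL replicate 2 neither passed, and Ngp was also lost without sEVCTRL replicate 3 or sEVNORM replicate 1. Camp also passed on the higher side in sEVNORM against sEVCTRL glands, but it had reached the filter on low counts only through the sEVNORM glands. No B cell, T cell or pan-leukocyte marker passed in any comparison, and all 8 of each list were on the lower side in sEVHYP against sEVNORM glands. In that comparison, 47.0% of all genes tested were on the higher side. Skeletal muscle, white adipocyte, blood endothelial and luminal markers did not pass either. Of 8 basal epithelial markers, Oxtr and Cnn1 were higher in sEVHYP than in sEVCTRL glands (edgeR quasi-likelihood, unadjusted P = 0.0247 and 0.0466). Of 8 fibroblast markers, Col3a1 was (unadjusted P = 0.0283). These 3 calls ended without sEVCTRL replicate 1 or 3 or sEVHYP replicate 1. Those of Cnn1 and Col3a1 also ended without sEVHYP replicate 2, and that of Cnn1 without sEVNORM replicate 1 or 3. Cnn1 also passed in sEVHYP against sEVNORM glands (0.62, SE 0.25, edgeR quasi-likelihood, unadjusted P = 0.0347), but not without sEVNORM replicate 2 or either sEVHYP gland.

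Outside the set, the 3 genes whose log2 CPM followed a member most closely over the 8 libraries were mostly on none of the macrophage lists. Folr2 and Colec12 were on them. For Retnla the 3 nearest were Folr2 (r = 0.950), Plat (0.942) and Antxr2 (0.941). For Mrc1 the nearest was Ccl9 (0.956), a chemokine, and for Cd163 Sema3e (0.979), a semaphorin at 0.399 to 2.08 CPM. Next came Gm29291 (0.953) and Chchd2 (0.947) for Mrc1, and Lrrc49 (0.959) and Fbln7 (0.957) for Cd163. Nearest to Adgre1 was Sgsm2 (0.973), to Cd68 Ms4a8a (0.941), to Csf1r E230029C05Rik (0.964) and to Aif1 Btnl2 (0.993). Timd4 was followed by Zfp688 (0.959), Prox1 (0.958) and Rprd2 (0.958), Lyve1 by Polr3d (0.946), Map7 (0.943) and Colec12 (0.940), and Itgax by 4930515G01Rik (0.962), 4933424M12Rik (0.959) and Imp4 (0.951). For the mean standardized level of all 10 members, the 10 nearest genes ranged from Pcdhgc4 (0.968) to Cfp (0.887), which encodes properdin, and included Clec4a3 (0.891), a myeloid lectin, Lrrc45, Adprm, Gm5921, Tslp, Cdca7l, Trmt61b and Bmf. With 8 libraries and 17858 genes, values of this size are the upper end of a long list and carry no test.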

How the data were processed

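Whole mammary glands taken 6 weeks after injection of sEVCTRL (3), sEVNORM (3) or sEVHYP (2) gave 8 RNA-Seq libraries, 1 per gland, grouped by the treatment label. The study states 2 to 3 animals per group. Libraries were made from polyadenylated RNA with the Lexogen SENSE mRNA-Seq V2 kit. Per the submitters' processing notes, the authors aligned reads with STAR to mm10 (GRCm38) and estimated counts per gene with RSEM 1.2.12. The values were deposited as raw whole-number counts, and how RSEM's estimates were rounded is not given in the sources used here. GENCODE M21 gave a symbol to 51596 of 51789 genes, and genes left unnamed took 0.0389% of counts. Total counts per library were 18194996 to 24622569. Intervals cover the spread between libraries, and no library was a duplicate of another in its group, the only pairs checked.

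Counts were fitted in R 4.3.3 with edgeR 4.0.16 and its two-sided quasi-likelihood test, after filterByExpr at a minimum count of 10 and TMM scaling (0.975 to 1.02), in 1 model of 3 groups with 5 residual and 4.08 prior degrees of freedom. Adjusted P values are Benjamini-Hochberg over 17858 genes, and an unadjusted P of 0.05 is the threshold of the study. Log2 CPM used a prior count of 2. Exact permutation tests used SciPy 1.17.1. DESeq2 1.42.0, other filters and scaling, a replicate block and each library left out were alternatives. The members and all lists were chosen with earlier results of these data known. Named were all members, list genes past an unadjusted P of 0.05 (at most 4 of a list in a comparison, 1 result not being reported here), Ptprc and the genes most like the members, and a few list genes (among them Arg1, Chil3, Nos2, Csf1, Il34, Spi1, Folr2, S100a8 and Clec4f) were added for what they encode. Promoter sequences came from RefSeq (GRCm38.p6), where 7 of the 10 members were found.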

Additional observations from a re-analysis of the deposited data

How the results depend on the processing

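No member passed an adjusted P of 0.05 in any of the 15 alternatives to the edgeR fit, and of 450 recomputed member values 395 kept their sign and side of the unadjusted threshold, 10 lost it, 2 gained it, 0 called values changed sign, and 43 values past the threshold in neither fit did. Itgax in sEVHYP against sEVNORM glands passed in 8 of 15 alternatives (log2 fold change -0.60 to -0.38, edgeR or DESeq2, lowest unadjusted P = 0.0352, highest unadjusted P = 0.197) and Lyve1 in sEVNORM against sEVCTRL glands in 12 of 15 (0.33 to 0.61, lowest unadjusted P = 0.00958, highest unadjusted P = 0.153). With no filter on low counts and with the replicate block, 0 members passed in sEVHYP against sEVNORM glands, and leaving out 1 library gave 0 to 1 members there and 0 to 1 in sEVNORM against sEVCTRL glands. With 1 library of sEVHYP left out, the lone gland is assumed to vary like the other groups. Whether same-numbered libraries shared more than a number is not given in the sources used here. They deviated from their group means with a correlation of -0.416 to 0.369, which in groups this small cannot settle whether they were paired. With the replicate block, Itgax had an unadjusted P = 0.0845 and Lyve1 an unadjusted P = 0.00958 (edgeR quasi-likelihood). With 1 library left out, the median log2 fold change of the members was -0.29 to 0.014 in sEVHYP against sEVCTRL and -0.34 to -0.036 in sEVHYP against sEVNORM glands.

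Over all genes, the number past an unadjusted P of 0.05 with no filter was 672 in sEVHYP against sEVCTRL, 1102 in sEVHYP against sEVNORM and 533 in sEVNORM against sEVCTRL glands, and 1195 in sEVHYP against sEVNORM glands by DESeq2 on only the groups compared. With 1 library left out it was 341 to 1472, 415 to 986 and 222 to 1018. Past an adjusted P of 0.05 were 4, 16 and 2 genes by DESeq2 on all 8 libraries and 14, 83 and 3 on only the groups compared. With no filter 1 gene passed in sEVHYP against sEVNORM glands, and with 1 library left out 0 to 1 did in sEVHYP against sEVCTRL glands. The cause of these moves was not tested. Of 132 recomputed differences relative to the pan-macrophage level, 131 moved by less than 1 SD. The co-variation without sEVNORM replicate 2 was chosen after seeing the data.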
